A study of Saccharomyces cerevisiae with 18 samples.

Results

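The genes described here are 40 nuclear genes of Saccharomyces cerevisiae that encode subunits of the respiratory chain and of ATP synthase. They were chosen by function and systematic name: 4 genes of succinate dehydrogenase, 9 of the cytochrome bc1 complex, 2 of cytochrome c, 9 of cytochrome c oxidase, 13 of ATP synthase and 3 NADH dehydrogenases. All 40 had a value on every array, out of 5739 genes with values in all.

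In yeast mitochondria, electrons from NADH and succinate pass through ubiquinone to the cytochrome bc1 complex, then through the soluble carrier cytochrome c to cytochrome c oxidase, which reduces oxygen. Yeast lacks a proton-pumping complex I and uses single-protein NADH dehydrogenases on either face of the inner membrane. The proton gradient built by the bc1 complex and the oxidase drives ATP synthase. Several steps have alternative isoforms: CYC1 and COX5A encode the forms known for growth in air, while CYC7 and COX5B encode forms known for growth with little oxygen.

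Transcripts of the engineered strains EPY330 and EPY338 were compared. The alleles by which these strains differ are not given in the sources used here. For each strain, 3 cultures were induced for 24 h at 30 degrees in YPG medium, and equal amounts of their RNA were combined into 1 pool. From 10 µg of each pool, targets were labeled 3 times with each of 3 methods and hybridized to NimbleGen oligonucleotide arrays, 18 in all: the direct random method (reverse transcription from random nonamers that carry Cy3, 5 µg of cDNA hybridized), the indirect method (a dye coupled to cDNA after its synthesis, 0.3 µg) and the ds-cDNA method (labeling of double-stranded cDNA, 4 µg). The 3 arrays of a group are therefore separate labelings of 1 pool, p-values measure only the spread of labeling and hybridization, and the methods share the same pools. The methods also differ in priming. The paper states that the indirect and ds-cDNA methods prime with oligo(dT), while direct random labeling also copies ribosomal and other non-coding RNA.

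All values below are log2 intensities that the authors normalized and summarized to 1 value per gene and array, and a log2 fold-change is the mean of the EPY330 arrays minus the mean of the EPY338 arrays. Within each method the strains were compared with limma, p-values received the Benjamini-Hochberg adjustment over all 5739 genes, and an adjusted p under 0.05 is called a difference at 95% confidence. The array medians of all genes lay between 9.99 and 10.12, and no arrays were identical. The median replicate SD of the 40 genes was 0.054 by direct random labeling, 0.076 by indirect labeling and 0.175 by ds-cDNA labeling, against 0.073, 0.102 and 0.112 over all genes. The respiratory genes were thus measured with less spread than all genes with the first 2 methods, and with more spread than all genes by ds-cDNA labeling.

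Most of the respiratory genes lay slightly above 0 in the comparison of EPY330 with EPY338, while CYC7, COX5B and the external NADH dehydrogenase NDE2 lay below. The direct random method called 15 of the 40 genes higher in EPY330 and 3 lower, where 11.0% of all genes were called higher and 11.4% lower. By indirect labeling, 4 were higher and 2 lower, against 4.48% and 4.60% of all genes. The ds-cDNA method called 1 higher and 2 lower, against 3.76% and 2.56%. The direct random count was 11 without EPY330 replicate 2, without EPY330 replicate 3 or without EPY338 replicate 3, and the indirect count was 3 without EPY330 replicate 2 or 3.

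The size of the shift was small. The median log2 fold-change of the 40 genes was 0.14 by direct random labeling, 0.16 by indirect labeling and 0.08 by ds-cDNA labeling, against -0.01, -0.02 and 0.00 over all genes. The log2 fold-change was positive for 36, 35 and 30 of the 40 genes in that order of methods, against 46.9%, 42.6% and 50.5% of all genes. All EPY330 arrays lay above all EPY338 arrays for 27 genes by direct random labeling, where 19.3% of all genes did so. The same held for 23 genes by indirect labeling, against 12.2% of all genes, and for 6 by ds-cDNA labeling, against 15.1%. Most of the 40 genes were bright: 38, 39 and 28 of them were among the brightest 25% of all genes, whose median log2 fold-changes were -0.02, -0.02 and 0.01.

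**Figure D1:**
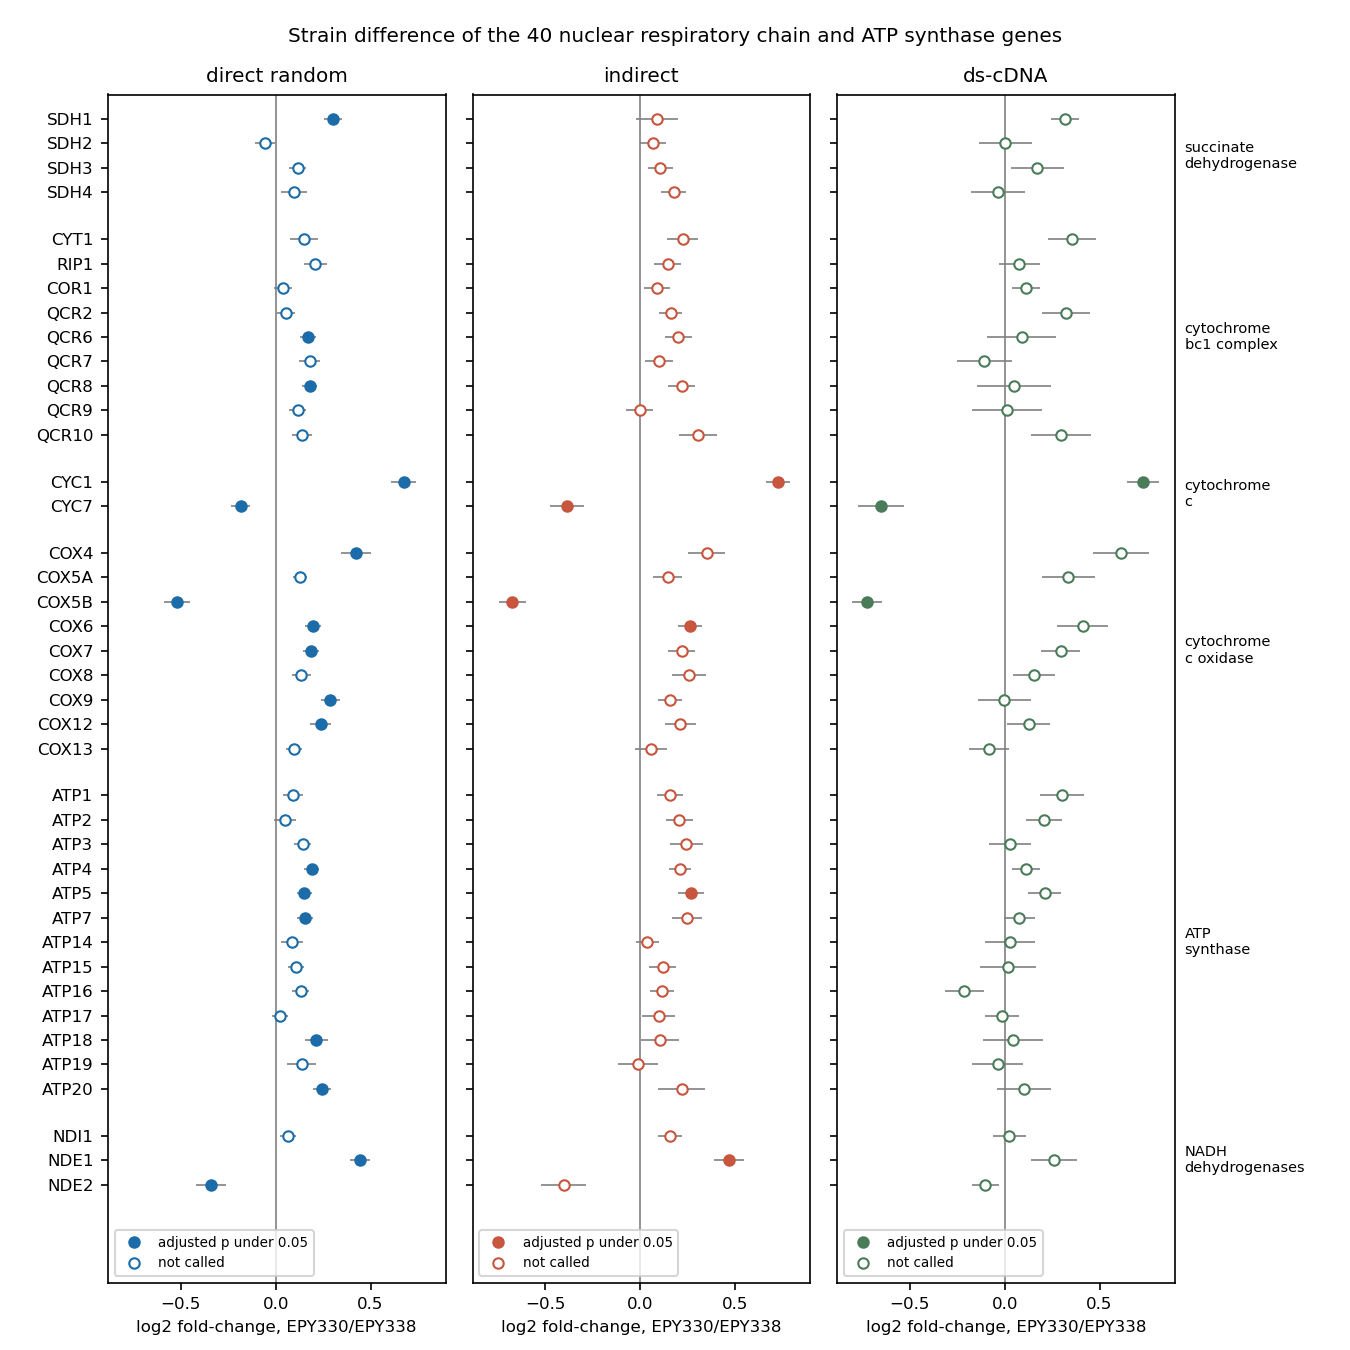
Log2 fold-change (EPY330/EPY338, x axis) of each of the 40 genes, grouped by complex from top to bottom, with 1 panel per labeling method. Points are limma estimates, bars are ± 1 standard error, and filled points were called at an adjusted p under 0.05. CYC7, COX5B and NDE2 lie left of 0 in all 3 panels, and CYC1 lies farthest to the right.

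**Figure D2:**
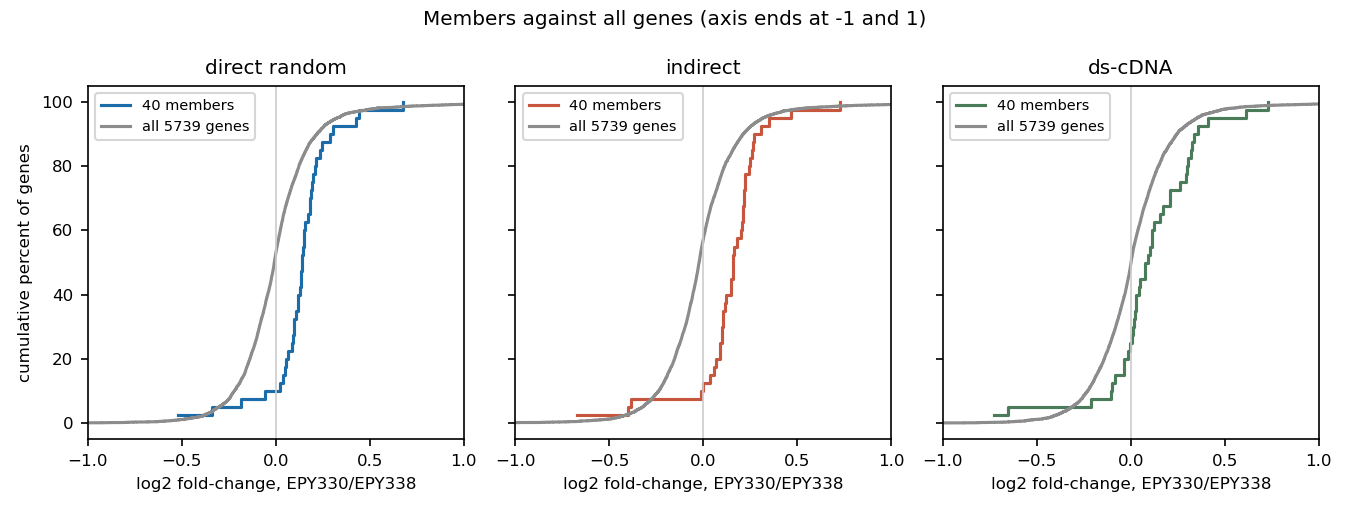
Cumulative percent of genes (y axis) against log2 fold-change (EPY330/EPY338, x axis) for the 40 respiratory genes (colored line) and all 5739 genes (gray line), 1 panel per labeling method. The line of the 40 genes lies mostly to the right of that of all genes, with medians of 0.14, 0.16 and 0.08 against -0.01, -0.02 and 0.00.

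The mean of the 40 genes was also taken on each array. By direct random labeling it was 13.16 to 13.19 on the EPY330 arrays and 13.03 to 13.07 on the EPY338 arrays. By indirect labeling it was 13.21 to 13.26 on the EPY330 arrays and 13.06 to 13.12 on the EPY338 arrays. The strains did not overlap with either method. By ds-cDNA labeling the means were 12.10 to 12.27 for EPY330 and 12.02 to 12.20 for EPY338, and these ranges overlapped. The SD over replicate arrays was 0.091 for EPY330 and 0.092 for EPY338 by ds-cDNA labeling, against at most 0.031 in the other groups. The array medians of all genes also separated the strains by direct random labeling, at 10.004 to 10.020 for EPY330 and 9.994 to 9.997 for EPY338. They did so by ds-cDNA labeling too (10.109 to 10.119 for EPY330 and 10.093 to 10.100 for EPY338), but overlapped by indirect labeling. Across the 3 methods, 28 genes (70% of the 40) had a positive log2 fold-change every time and 3 (7.5%) a negative one every time, against 25.7% and 31.6% of all genes. The methods share the RNA pools, so these counts describe the pools and are not separate tests of the strains.

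The cytochrome c isoforms differed between the strains in opposite directions. CYC1 (YJR048W), which encodes iso-1-cytochrome c, had log2 intensities of 12.20, 12.11 and 12.23 on the EPY330 arrays and 11.51, 11.62 and 11.40 on the EPY338 arrays by direct random labeling. Its values by indirect labeling were 12.39, 12.31 and 12.28 for EPY330 and 11.58, 11.64 and 11.58 for EPY338. By ds-cDNA labeling they were 10.26, 10.22 and 10.12 for EPY330 and 9.48, 9.33 and 9.61 for EPY338. Every EPY330 array thus lay above every EPY338 array of its method, although the ds-cDNA values of both strains were lower than those of the other methods. The log2 fold-change was 0.67 ± 0.063 (SE), 0.73 ± 0.062 and 0.73 ± 0.085 by direct random, indirect and ds-cDNA labeling, or 1.60-, 1.65- and 1.66-fold, with adjusted p = 0.000499, 0.000239 and 0.00683. CYC1 had the largest positive log2 fold-change of the 40 genes with each method, and its call held without any 1 array.

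CYC7 (YEL039C), which encodes iso-2-cytochrome c, had log2 intensities of 11.38, 11.49 and 11.53 on the EPY330 arrays and 11.65, 11.65 and 11.66 on the EPY338 arrays by direct random labeling. The indirect method gave 11.57, 11.52 and 11.40 for EPY330 and 11.93, 12.01 and 11.70 for EPY338. The ds-cDNA method gave 9.16, 9.15 and 9.07 for EPY330 and 9.59, 9.70 and 10.05 for EPY338. The EPY330 arrays were below the EPY338 arrays with each method, without overlap. CYC7 was lower in EPY330 by a log2 fold-change of -0.19 ± 0.048 (SE), -0.39 ± 0.092 and -0.65 ± 0.119, or fold-changes of 0.880, 0.766 and 0.636, with adjusted p = 0.0327, 0.0373 and 0.0295. These calls were close to the threshold. The direct random call was lost without any 1 array except EPY330 replicate 3 (adjusted p 0.0672 to 0.0812), the indirect call without any 1 array except EPY338 replicate 3 (0.0730 to 0.127), and the ds-cDNA call without EPY330 replicate 1, 2 or 3 or EPY338 replicate 2 (0.0779 to 0.0851).

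Of the alternative forms of subunit V of cytochrome c oxidase, COX5B was lower in EPY330 with all 3 methods, and COX5A was not called. COX5B (YIL111W) had log2 intensities of 10.95, 10.82 and 10.98 on the EPY330 arrays and 11.57, 11.35 and 11.40 on the EPY338 arrays by direct random labeling. Its indirect values were 11.29, 11.38 and 11.18 for EPY330 and 11.99, 11.94 and 11.95 for EPY338. Its ds-cDNA values were 8.92, 8.75 and 8.74 for EPY330 and 9.44, 9.52 and 9.62 for EPY338. The strains did not overlap with any method, and COX5B was lower in EPY330 by a log2 fold-change of -0.52 ± 0.071 (SE), -0.67 ± 0.071 and -0.73 ± 0.078 (fold-changes of 0.697, 0.627 and 0.605, adjusted p = 0.00264, 0.000806 and 0.00516 in the order of methods above). The call held without any 1 array, and COX5B had the most negative log2 fold-change of the 40 genes with each method.

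COX5A (YNL052W), the form known for growth in air, had log2 intensities of 13.43, 13.39 and 13.42 on the EPY330 arrays and 13.27, 13.27 and 13.32 on the EPY338 arrays by direct random labeling, without overlap. The indirect values were 13.76, 13.82 and 13.86 for EPY330 and 13.57, 13.64 and 13.79 for EPY338, and the ds-cDNA values were 11.57, 11.39 and 11.19 for EPY330 and 11.11, 10.80 and 11.22 for EPY338. The strains overlapped with these last 2 methods. COX5A had log2 fold-changes of 0.13 ± 0.039 (SE), 0.15 ± 0.076 and 0.34 ± 0.139, or 1.09-, 1.11- and 1.26-fold, and was not called with any method (adjusted p = 0.0537, 0.276 and 0.204).

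The difference between the isoforms of a pair was also taken within each array, which removes anything that scales a whole array. The log2 difference CYC1 minus CYC7 was greater in EPY330 by 0.86 by direct random labeling, 1.11 by indirect labeling and 1.38 by ds-cDNA labeling (1.81-, 2.16- and 2.60-fold). COX5A minus COX5B was greater in EPY330 by 0.65, 0.82 and 1.06 (1.57-, 1.76- and 2.09-fold). NDE1 minus NDE2, the external NADH dehydrogenases, was greater in EPY330 by 0.78, 0.87 and 0.36 (1.72-, 1.83- and 1.28-fold). The strains did not overlap in any of these comparisons except NDE1 minus NDE2 by ds-cDNA labeling. A two-sided exact permutation test gave p = 0.2 for that comparison and p = 0.1 for each of the other 8, which is the smallest p that 3 arrays against 3 allow, so that none of the 9 can pass 0.05. These pairs are paralogs, and cross-hybridization between them was not tested. NDE2 lay below the array medians of all genes by direct random and indirect labeling.

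**Figure D3:**
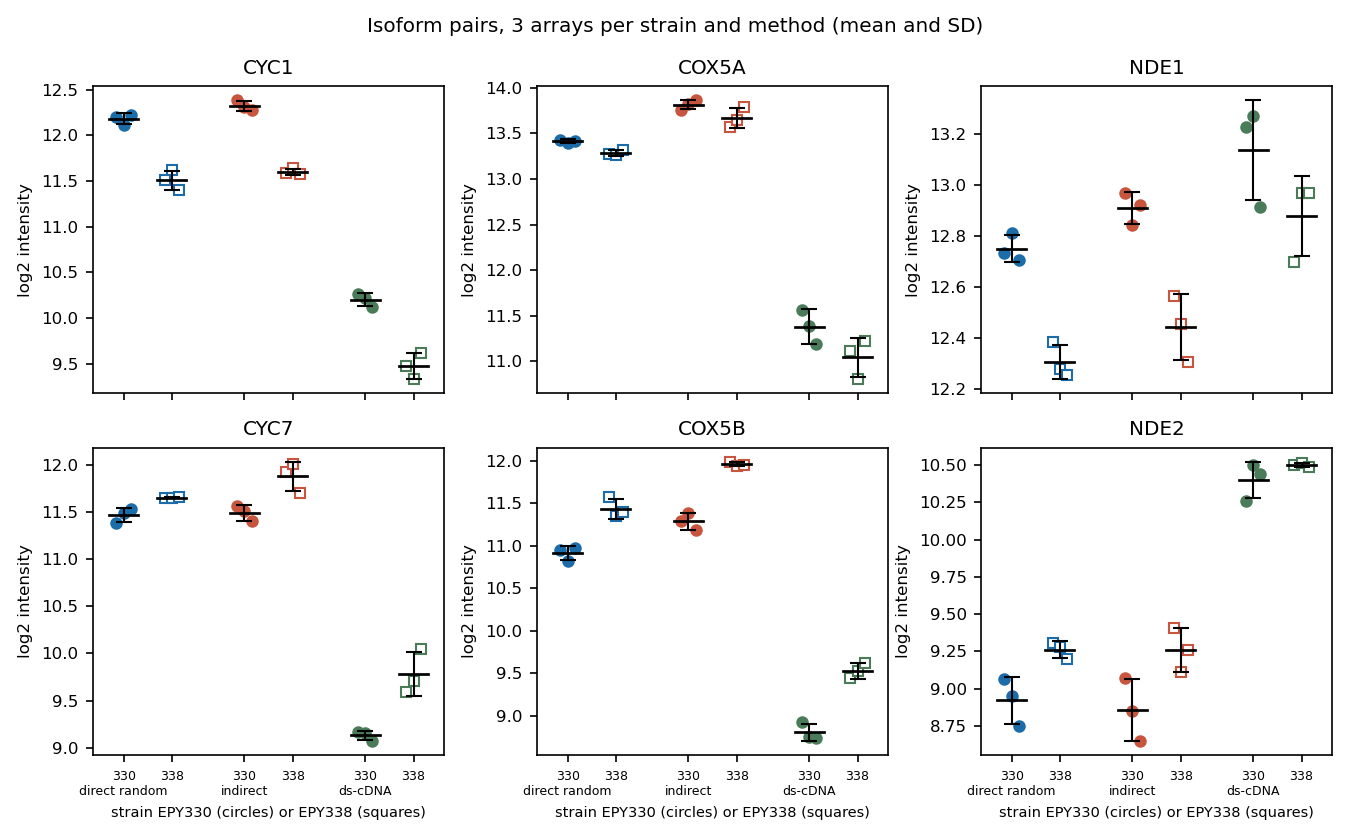
Log2 intensity (y axis, scaled separately in each panel) of CYC1, CYC7, COX5A, COX5B, NDE1 and NDE2 on each of the 18 arrays, by labeling method, with EPY330 (filled circles) left of EPY338 (open squares). Horizontal lines are means and bars are ± 1 SD over 3 arrays. EPY330 lies above EPY338 in the top panel of the CYC pair and below it in the bottom panel with every method.

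Of the other cytochrome c oxidase genes, COX4, COX6, COX7, COX9 and COX12 were higher in EPY330 by direct random labeling, and COX6 also by indirect labeling. COX4 (YGL187C), which encodes the zinc-binding subunit IV, had log2 intensities of 12.68, 12.65 and 12.69 on the EPY330 arrays and 12.43, 12.11 and 12.21 on the EPY338 arrays by direct random labeling. The indirect values were 12.81, 12.78 and 12.66 for EPY330 and 12.53, 12.46 and 12.20 for EPY338, and the ds-cDNA values were 11.57, 11.81 and 11.90 for EPY330 and 10.85, 11.29 and 11.30 for EPY338. EPY330 lay above EPY338 without overlap with all 3 methods. The log2 fold-changes were 0.42 ± 0.079 (SE), 0.35 ± 0.096 and 0.61 ± 0.147 (1.34-, 1.28- and 1.53-fold), with adjusted p = 0.00967, 0.0600 and 0.0616, so that only the direct random difference was called. The indirect difference passed with the replicate number as a block (adjusted p = 0.0185) and without EPY338 replicate 1 (0.0494).

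COX6 (YHR051W), which encodes subunit VI, had log2 intensities of 13.42, 13.45 and 13.45 on the EPY330 arrays and 13.27, 13.28 and 13.19 on the EPY338 arrays by direct random labeling. It had 13.32, 13.41 and 13.30 for EPY330 and 13.07, 13.04 and 13.12 for EPY338 by indirect labeling, and 13.57, 13.22 and 13.15 for EPY330 and 12.94, 12.73 and 13.03 for EPY338 by ds-cDNA labeling. Again no arrays of the strains overlapped. The log2 fold-changes were 0.20 ± 0.043 (SE), 0.26 ± 0.064 and 0.41 ± 0.134 (1.15-, 1.20- and 1.33-fold), with adjusted p = 0.0174, 0.0384 and 0.128. The direct random call was lost without EPY330 replicate 2, EPY330 replicate 3 or EPY338 replicate 3 (adjusted p 0.0504 to 0.0556). The indirect call was lost without any 1 array except EPY338 replicate 3 (0.0827 to 0.138) and with the replicate block (0.0519).

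The remaining oxidase genes encode small subunits of the complex. By direct random labeling, the log2 fold-change was 0.29 ± 0.051 (SE) for COX9 (YDL067C, adjusted p = 0.00815), 0.24 ± 0.056 for COX12 (YLR038C, 0.0235) and 0.19 ± 0.041 for COX7 (YMR256C, 0.0187). The COX9 call held without any 1 array. The COX12 call was lost without any 1 array except EPY338 replicate 1 (adjusted p 0.0516 to 0.0696), and the COX7 call without EPY330 replicate 2, EPY330 replicate 3 or EPY338 replicate 3 (0.0552 to 0.0581). COX8 (YLR395C) and COX13 (YGL191W) had log2 fold-changes of 0.14 and 0.10 and were not called. None of these 5 genes was called by indirect labeling (log2 fold-changes 0.06 to 0.26) or the ds-cDNA method (-0.08 to 0.30).

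The NADH dehydrogenases split by gene. NDE1 (YMR145C), the external enzyme that oxidizes cytosolic NADH, had log2 intensities of 12.73, 12.81 and 12.71 on the EPY330 arrays and 12.38, 12.28 and 12.26 on the EPY338 arrays by direct random labeling. The indirect values were 12.97, 12.84 and 12.92 for EPY330 and 12.56, 12.45 and 12.31 for EPY338. With both methods EPY330 lay above EPY338, and NDE1 was higher in EPY330 by a log2 fold-change of 0.44 ± 0.052 (SE, 1.36-fold, adjusted p = 0.00132) and 0.47 ± 0.081 (1.38-fold, 0.0107). The ds-cDNA values were 13.23, 13.27 and 12.91 for EPY330 and 12.70, 12.97 and 12.97 for EPY338. These overlapped, and their log2 fold-change of 0.26 ± 0.123 was not called (adjusted p = 0.259).

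NDE2 (YDL085W), the second external enzyme, had log2 intensities of 9.06, 8.95 and 8.75 on the EPY330 arrays and 9.31, 9.28 and 9.20 on the EPY338 arrays by direct random labeling, and was lower in EPY330 by a log2 fold-change of -0.34 ± 0.081 (SE, fold-change 0.790, adjusted p = 0.0235). That call was lost without EPY330 replicate 2, EPY338 replicate 1 or EPY338 replicate 2 (adjusted p 0.0520 to 0.0726). The indirect values were 9.07, 8.85 and 8.65 for EPY330 and 9.41, 9.11 and 9.26 for EPY338, also without overlap. The log2 fold-change was -0.40 ± 0.117 (fold-change 0.756, adjusted p = 0.0730), and it passed with the replicate block (0.0197) or without EPY330 replicate 1 (0.0456). The ds-cDNA values were 10.26, 10.50 and 10.44 for EPY330 and 10.50, 10.51 and 10.49 for EPY338, with overlap (log2 fold-change -0.10 ± 0.072, adjusted p = 0.454). NDI1 (YML120C), the internal NADH dehydrogenase, had log2 fold-changes of 0.06, 0.16 and 0.03 in that order of methods and was not called.

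Of the succinate dehydrogenase genes, only SDH1 (YKL148C), which encodes the flavoprotein subunit, was called, by direct random labeling. Its log2 intensities were 12.79, 12.76 and 12.72 on the EPY330 arrays and 12.53, 12.42 and 12.41 on the EPY338 arrays, a log2 fold-change of 0.30 ± 0.048 (SE, 1.23-fold, adjusted p = 0.00494) that held without any 1 array. The ds-cDNA values of 13.51, 13.69 and 13.57 for EPY330 and 13.18, 13.28 and 13.36 for EPY338 gave 0.32 ± 0.074 (1.25-fold, adjusted p = 0.0580). Neither set overlapped. The indirect values of 12.53, 12.68 and 12.39 for EPY330 and 12.64, 12.42 and 12.28 for EPY338 overlapped, with a log2 fold-change of 0.09 ± 0.110 (adjusted p = 0.683). The iron-sulfur subunit gene SDH2 (YLL041C) and the membrane subunit genes SDH3 (YKL141W) and SDH4 (YDR178W) were not called with any method, with log2 fold-changes between -0.06 and 0.18.

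The cytochrome bc1 complex had 2 calls among its 9 genes, both higher in EPY330 by direct random labeling, where 11.0% of all genes were called higher. QCR8 (YJL166W) and QCR6 (YFR033C), which encode small subunits, had log2 fold-changes of 0.18 ± 0.038 and 0.17 ± 0.042 (SE, adjusted p = 0.0160 and 0.0256). The QCR8 call was lost without EPY330 replicate 3 (adjusted p = 0.0510) and the QCR6 call without any 1 array except EPY330 replicate 2 (0.0548 to 0.0752). The Rieske iron-sulfur protein gene RIP1 (YEL024W) and the small subunit gene QCR7 (YDR529C) lay just outside, with log2 fold-changes of 0.21 and 0.18 and adjusted p = 0.0503 and 0.0570. Not called either were the cytochrome c1 gene CYT1 (YOR065W), the core subunit genes COR1 (YBL045C) and QCR2 (YPR191W), and the small subunit genes QCR9 (YGR183C) and QCR10 (YHR001W-A). The median log2 fold-change of the 9 genes was 0.15 by direct random labeling, 0.16 by indirect labeling and 0.09 by ds-cDNA labeling.

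For ATP synthase, 5 of the 13 genes were higher in EPY330 by direct random labeling, 1 by indirect labeling and none by ds-cDNA labeling, against 11.0%, 4.48% and 3.76% of all genes, and none was lower. The log2 fold-changes were 0.24 ± 0.049 (SE) for ATP20 (YPR020W, subunit g, adjusted p = 0.0127), 0.21 ± 0.060 for ATP18 (YML081C-A, a small membrane subunit, 0.0401), 0.19 ± 0.038 for ATP4 (YPL078C, subunit b of the stalk, 0.0128), 0.16 ± 0.043 for ATP7 (YKL016C, subunit d, 0.0389) and 0.15 ± 0.039 for ATP5 (YDR298C, the oligomycin sensitivity-conferring protein, 0.0304). Those of ATP20 and ATP4 held without any 1 array. ATP18 was lost without any 1 array except EPY338 replicate 3 (adjusted p 0.0628 to 0.113), ATP7 without any except EPY338 replicate 1 (0.0528 to 0.114), and ATP5 without any except EPY330 replicate 3 (0.0651 to 0.0931). ATP5 was also the gene called by indirect labeling, at 0.27 ± 0.068 (adjusted p = 0.0463), a call lost without any 1 array (0.0616 to 0.146).

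Not called with any method were the genes of the catalytic head and central stalk, ATP1 (YBL099W, alpha), ATP2 (YJR121W, beta), ATP3 (YBR039W, gamma), ATP16 (YDL004W, delta) and ATP15 (YPL271W, epsilon), nor were the stalk gene ATP14 (YLR295C, subunit h) and the membrane genes ATP17 (YDR377W, subunit f) and ATP19 (YOL077W-A, subunit k). The median log2 fold-change of the 13 genes was 0.14 by direct random labeling and 0.16 by indirect labeling, where 13 and 12 of them were positive. By ds-cDNA labeling the median was 0.04 and 10 were positive. By direct random labeling the uncalled genes ATP3 and ATP16 had log2 fold-changes of 0.14 and 0.13, close to those of the called genes ATP7 and ATP5 (0.16 and 0.15).

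The strain difference of a gene was also compared between methods, with the interaction of strain and method in 1 limma fit of all 18 arrays. This fit took 1 spread per gene for all methods, although the median replicate SD was 0.175 by ds-cDNA labeling, against 0.054 and 0.076. The ds-cDNA spread thus also entered the test of direct random against indirect labeling, so a missing call there does not show that these methods agree. None of the 40 genes was called for direct random against indirect, direct random against ds-cDNA or indirect against ds-cDNA, where 0.00%, 0.575% and 0.697% of all genes were called. An unadjusted p under 0.05 was found for 0, 3 and 1 of the 40 genes, against 5.66%, 10.0% and 11.5% of all genes. CYC7 came closest. Its log2 fold-change was -0.19 by direct random labeling and -0.65 by ds-cDNA labeling, a difference of 0.47 ± 0.137 (SE, adjusted p = 0.193). ATP16 had 0.13 by direct random labeling and -0.21 by ds-cDNA labeling (adjusted p = 0.216). That NDE1 was called by direct random and not by ds-cDNA labeling is therefore not shown to be a difference between the methods (0.44 against 0.26, adjusted p = 0.698).

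The intensities of the 40 genes also depended on the labeling method. As the same pools were labeled 3 ways, the mean of each gene over the strains was set against that of another method. By direct random labeling 29 of the 40 genes were brighter and 9 dimmer than by ds-cDNA labeling, against 37.4% and 49.7% of all genes. By indirect labeling 26 were brighter and 8 dimmer than by ds-cDNA labeling, against 40.4% and 48.6%. Between the direct random and indirect methods, 11 were brighter and 13 dimmer with direct random, against 30.5% and 34.0%. The median log2 difference of the 40 genes was 0.89 for direct random minus ds-cDNA, 1.15 for indirect minus ds-cDNA and -0.07 for direct random minus indirect, against -0.12, -0.09 and -0.02 over all genes.

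By complex, all 9 cytochrome c oxidase genes and both cytochrome c genes were brighter by direct random than by ds-cDNA labeling. So were 10 of the 13 ATP synthase genes, 6 of the 9 bc1 genes, 1 of the 4 succinate dehydrogenase genes and 1 of the 3 NADH dehydrogenase genes. The 3 largest differences were those of ATP19, ATP18 and COX7, which encode small membrane subunits. Large differences were not limited to membrane subunits, as the stalk gene ATP14 had 2.61 (6.12-fold). ATP19 had mean log2 intensities of 13.30 by direct random labeling and 9.73 by ds-cDNA labeling, a difference of 3.57 ± 0.083 (SE, 11.9-fold, adjusted p = 5.96e-17 by limma). ATP18 had 13.82 and 10.81 in the same order, a difference of 3.01 (8.06-fold), and COX7 had 13.68 and 10.82, a difference of 2.86 (7.24-fold). Of the 9 genes dimmer by direct random labeling, NDE2 had the largest difference, with 9.09 by direct random labeling and 10.45 by ds-cDNA labeling (difference -1.36). SDH4, SDH1, SDH2 and ATP2 followed, with differences of -1.09, -0.83, -0.77 and -0.69. CYC1, CYC7 and COX5B kept the sign of their strain difference although their intensities were 4.02-, 4.31- and 4.03-fold higher by direct random than by ds-cDNA labeling.

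**Figure D4:**
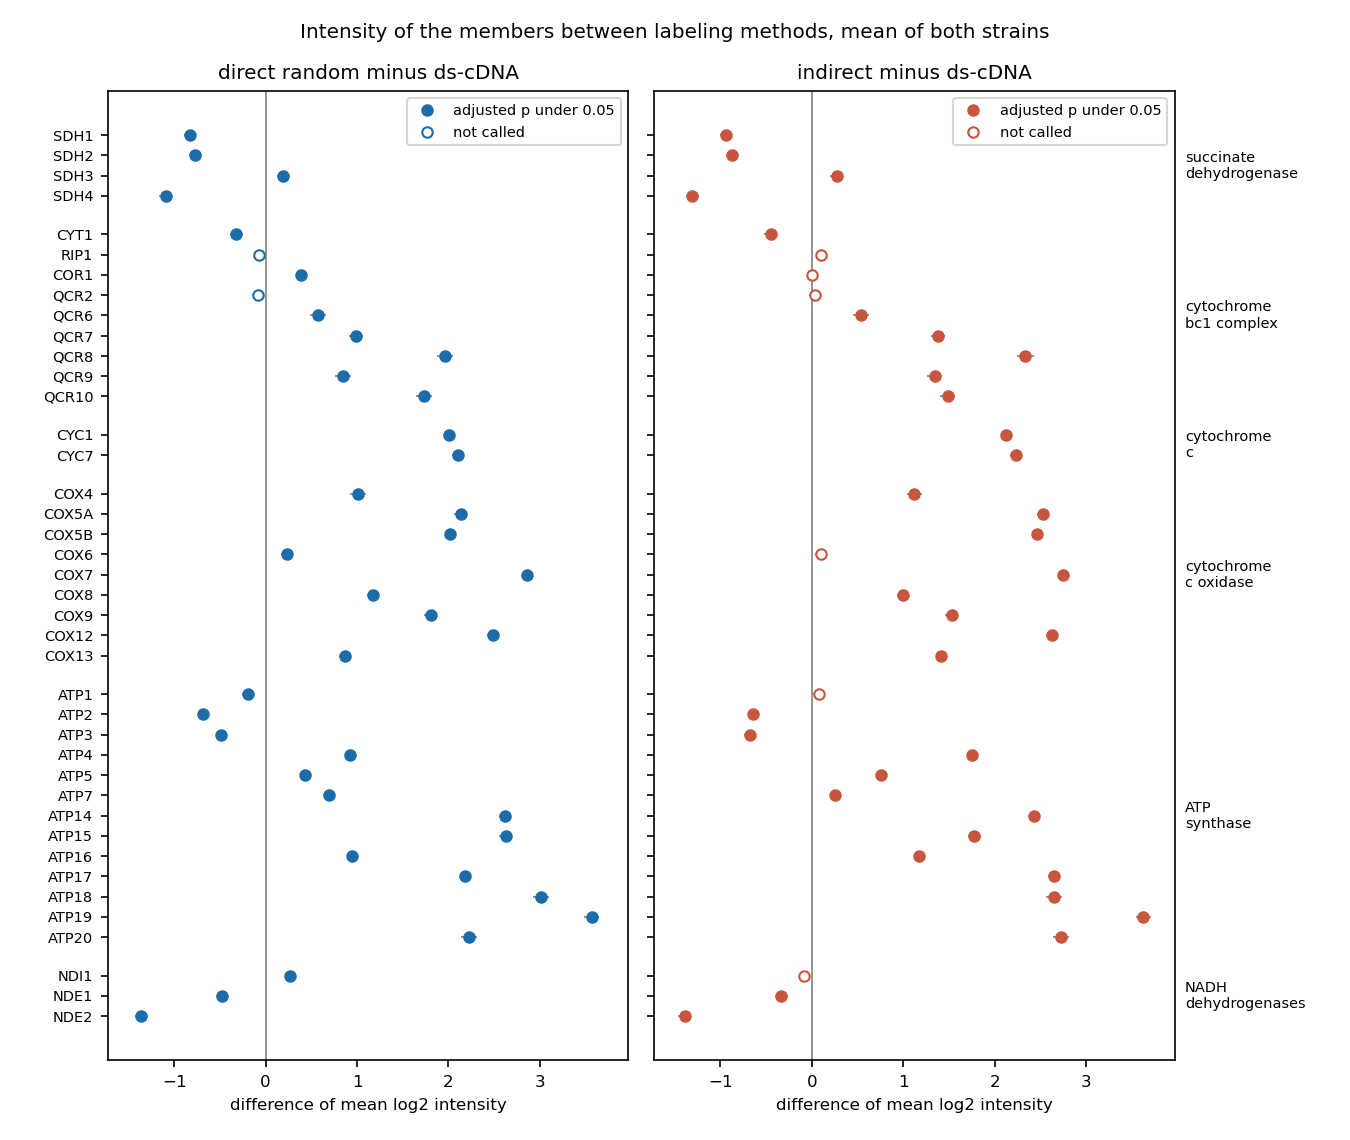
Difference of mean log2 intensity over both strains (x axis) for each of the 40 genes, direct random minus ds-cDNA (left) and indirect minus ds-cDNA (right), grouped by complex. Points are limma estimates from 18 arrays, bars are ± 1 standard error, often smaller than the point, and filled points were called at an adjusted p under 0.05. ATP19 lies farthest to the right in both panels, and NDE2 farthest to the left.

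Among the regulators of these genes, ROX1 (YPR065W), a heme-dependent repressor of genes for growth with little oxygen, was higher in EPY330 with all 3 methods. Its mean log2 intensity was 12.21 in EPY330 and 11.67 in EPY338 by direct random labeling, 11.73 in EPY330 and 10.96 in EPY338 by indirect labeling, and 13.46 in EPY330 and 13.07 in EPY338 by ds-cDNA labeling. The log2 fold-changes were 0.54 ± 0.056 (SE), 0.77 ± 0.060 and 0.39 ± 0.073, with adjusted p = 0.000845, 0.000127 and 0.0312. The ds-cDNA call was lost without any 1 array (adjusted p 0.0514 to 0.0872). HAP2 to HAP5 encode the CCAAT-binding activator of respiratory genes, with HAP4 as the subunit that activates transcription and is induced by respiratory growth. By direct random labeling HAP4 (YKL109W) was higher in EPY330 (log2 fold-change 0.29, adjusted p = 0.00523), while HAP2 (YGL237C, -0.32, 0.00523) and HAP5 (YOR358W, -0.16, 0.0312) were lower. The HAP5 call was lost without any 1 array except EPY338 replicate 3 (0.0731 to 0.0849). HAP3 (YBL021C) had 0.26 and the heme-responsive activator gene HAP1 (YLR256W) 0.02, and neither was called. None of HAP1 to HAP5 was called with the indirect or ds-cDNA method. Of the 9 regulators on this list, ROX1 and HAP4 were thus called higher and HAP2 and HAP5 lower by direct random labeling, and ROX1 was the 1 gene called by the other methods. Of all genes, 11.0% were called higher and 11.4% lower by direct random labeling. The shares called higher by indirect and ds-cDNA labeling were 4.48% and 3.76%.

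The assembly factors of these complexes lay mostly below 0. Of 37 assembly factors, 2 were higher in EPY330 and 7 lower by direct random labeling, 1 was lower by indirect labeling and none was called by ds-cDNA labeling. Of all genes, 11.0% were called higher and 11.4% lower by direct random labeling, and 4.60% lower by indirect labeling. Those called higher were SDH6 and ATP10, and the one called by indirect labeling was CBP4, named after their values were seen. The median log2 fold-changes of the list were -0.10, -0.07 and -0.13, and 23 of them (62.2%) were negative with all 3 methods, against 31.6% of all genes. Of 10 further subunits and paralogs, 4 were lower by direct random labeling, 3 lower by indirect labeling, and 1 higher and 2 lower by ds-cDNA labeling, against 11.4%, 4.60%, 3.76% and 2.56% of all genes. The gene called higher was SDH9, and RCF1 and STF2 were among the lower ones, all 3 named after their values were seen. Called with all 3 methods were COX26 (YDR119W-A), a small protein bound to cytochrome c oxidase, and SHH4 (YLR164W), a paralog of SDH4. COX26 was lower in EPY330 by a log2 fold-change of -0.50, -0.66 and -0.78 (adjusted p = 0.000424, 0.00397 and 0.0143), and SHH4 by -0.38, -0.42 and -0.25 (0.00107, 0.0205 and 0.0401). The ds-cDNA call of COX26 was lost without EPY330 replicate 2 (0.0578). That of SHH4 was lost without any 1 array (0.0757 to 0.112), and its indirect call without EPY330 replicate 1, EPY330 replicate 2 or EPY338 replicate 2 (0.0555 to 0.0741).

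Of 9 other electron donors and carriers, 2 were higher in EPY330 by direct random labeling, none was called by indirect labeling, and 1 was lower by ds-cDNA labeling, against 11.0% of all genes higher by direct random and 2.56% lower by ds-cDNA labeling. These were PET9, the main ADP/ATP carrier, and POR1, the outer membrane channel, and the carrier gene AAC3, all 3 named after their values were seen. Of the 7 subunit genes on mitochondrial DNA, 3 were higher in EPY330 by direct random labeling and 1 by indirect labeling, against 11.0% and 4.48% of all genes, and none was called by ds-cDNA labeling. These were ATP8, ATP6 and COX3, and COX2, also named after their values were seen. Their list had median log2 fold-changes of 0.16, 0.29 and -0.06. The mean log2 intensity of the 7 genes was 14.38 by direct random, 13.19 by indirect and 10.24 by ds-cDNA labeling. The mean of all genes was 10.19, 10.19 and 10.22. Whether the lower ds-cDNA intensity bears on the missing calls was not tested. The calls of PET9, POR1, ATP8, COX2 and CBP4 held without any 1 array, while those of AAC3, ATP6, COX3, SDH6, ATP10, SDH9 and RCF1, and the indirect call of STF2, were each lost without at least 1 array.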

How the data were processed

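RNA pools of EPY330 and EPY338 were labeled with 3 methods and hybridized to 18 arrays. The deposited table holds log2 intensities, 1 per gene and array, which the authors made from NimbleScan features with the RMA algorithm, quantile normalization and probe summarization in ArrayStar. Which arrays were normalized together, and on which slide each lay, is not given in the sources used here. The table lists 5861 entries, of which 122 are empty on all arrays and were dropped, and 5739 remained. Symbols were taken from the R64 annotation by systematic name (5733 matched). None of the 40 genes overlaps another gene of it. The probe build is not named, so no coordinates are given, and gene sequences and promoter motifs were not used here.

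Strains were compared within each method with limma 3.58.1 in R 4.3.3 (lmFit, eBayes, 6 arrays, no filter) and Benjamini-Hochberg adjustment over all 5739 genes. Interactions and differences in intensity came from 1 fit of 18 arrays with 6 group means. Isoform pairs were compared with two-sided exact permutation tests. The scripts were tested on simulated data. No set test was made. The number of arrays limits the precision.

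Array values are given for 9 genes: those 8 with the largest mean size of log2 fold-change among genes called at least once with 1 direction throughout, and the isoform pairs. Of other lists, HAP1 to HAP5, ROX1 and genes called with all 3 methods are named. The members and lists were chosen with earlier results of these data known.

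Same-numbered replicates of the strains were checked for shared deviations from the group means. By indirect labeling the correlations were 0.12, 0.15 and 0.25, all over 0.1, so a replicate block is given beside indirect calls that it changes. The evidence for pairs is weak, as 1 pair with different numbers had 0.205. Alternatives were the t-test the methods name, 1 fit of all arrays, an intensity trend in the prior variance, the block, median centring, quantile normalization within a method, leaving out the dimmest 25% of genes, and leaving out each array. Plots were made in Python 3.11.15 (matplotlib 3.10.9).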

Additional observations from a re-analysis of the deposited data

How the results depend on the processing

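The number of genes called moved most between settings. By direct random labeling, 18 of the 40 genes were called, but 7 in 1 fit of all 18 arrays, 9 with a replicate block and 11 to 13 when 1 array was left out. By indirect labeling, 6 were called, but 3 with the methods' t-test, 14 with a prior variance that follows a trend in intensity and 3 to 5 when 1 array was left out. By ds-cDNA labeling, 3 were called, but 1 with the methods' t-test, 12 in 1 fit of all 18 arrays, 5 without the dimmest 25% of genes and 2 or 3 when 1 array was left out. The causes were not tested, except that leaving out an array leaves fewer samples.

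The replicate block gave 7 calls by indirect labeling and 3 by ds-cDNA labeling. The deviations of same-numbered arrays correlated at 0.01, -0.10 and -0.04 by direct random labeling and -0.08, 0.02 and -0.19 by ds-cDNA labeling, so the numbers were not taken as pairs there. With the block, CYC7, COX6, QCR6, QCR8, COX7, COX12, ATP5, ATP7 and ATP18 were not called by direct random labeling (adjusted p 0.0517 to 0.0890), and by ds-cDNA labeling COX4 was called (0.0389) and CYC7 was not (0.0932).

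For 60 called log2 fold-changes over these genes and the other lists, 773 alternatives were run, and 552 kept the call. None changed sign, but most alternatives could not have changed it. The t-test, the fit of all arrays, the trend, the block and leaving out dim genes do not alter the log2 fold-change itself. For the called results of the 40 genes the strains did not overlap, so leaving out 1 array could not reverse the sign either. Only median centring and quantile normalization could have done so there. CYC1 and COX5B kept theirs in all alternatives with each method, except CYC1 by ds-cDNA labeling and the methods' t-test (adjusted p = 0.0561). The median log2 fold-change of the 40 genes moved by less than the spread between arrays, the count of interactions stayed at 0, and counts of intensity differences between methods moved by less than 1.5 times, in all alternatives run. The isoform pair differences were recomputed after quantile normalization and without each array, alternatives chosen after seeing the data. All 63 values stayed within 1 SD. Leaving out 1 array of 3 cannot move such a difference by 1 SD, so only the values after quantile normalization could have failed. With 3 labelings of 1 pool per group, differences between cultures are not measured.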

Other observations

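Genes known to be repressed in air were looked up after the values of CYC7, COX5B and ROX1 had been seen, so they are a description only. Of 9 such genes, 7 had a negative log2 fold-change of EPY330/EPY338 with all 3 methods, against 31.6% of all genes. Among them was the cell wall mannoprotein gene TIR2 (-0.39, -0.51 and -0.82 by direct random, indirect and ds-cDNA labeling). ANB1, the low-oxygen form of translation factor eIF5A, was another (-0.19, -0.71 and -0.09). The fatty acid desaturase gene OLE1 lay the other way (0.42, 0.53 and 0.13). By direct random labeling 2 of the 9 were called lower and 1 higher, against 11.4% and 11.0% of all genes. By indirect labeling 2 were lower and 1 higher, against 4.60% and 4.48%. By ds-cDNA labeling 2 were lower, against 2.56%. TIR2 alone was called with all 3 methods.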
